A study of Mus musculus with 6 samples.

Results

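The immediate early genes examined here are 10 genes that cells switch on within minutes of synaptic activity or a growth factor: Fos, Fosb, Jun, Junb, Egr1, Nr4a1, Npas4, Arc, Ier2 and Btg2. They were taken by gene name, as genes known to respond to activity or growth factors within an hour and not by a cut on their values, and all 10 were found among the 55536 named genes of the table. Of them, 7 reached a mean of 1 TPM (the abundance scale of the table, corrected for gene length and library size) over the 6 samples and entered the test across 14518 genes. Fosb, Egr1 and Npas4 did not reach it.

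The samples are cerebral cortex of C57BL/6 fetuses at embryonic day 14.5 (E14.5). In the Ctr group (3 samples) the pregnant dams breathed 100% O2 for 6 h, and in the Sevo group (3 samples) they breathed 2.5% sevoflurane, an inhaled anaesthetic, in 97.5% O2 for the same 6 h. The study's methods describe caesarean sections at the end of the exposure or 24 h later. They give E14.5 as the stage of the sequenced cortex. It is the earliest age named for the single exposure, so it matches the end of the exposure. High oxygen and the section are common to both groups, and no group in room air is part of the comparison. The methods name 3 or more embryos of different dams per group, in their section on image analysis. For the sequenced samples the number of fetuses or litters behind each was not stated. The p-values therefore measure the spread between these samples, which may be technical.

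Immediate early genes need no new protein for their induction. Transcription factors that are already in the cell, such as SRF with its ELK partners and CREB, are phosphorylated by ERK, p38 and calcium-dependent kinases and act on promoters that are kept ready, and the resulting mRNAs and proteins decay fast. Some products are transcription factors themselves. Fos and Jun proteins pair as AP-1, while others, such as Arc at the synapse or the antiproliferative Btg2, act directly. In the adult brain these genes serve as markers of neuronal firing, which anaesthetics lower. In the embryonic cortex most cells are progenitors or young neurons with few synapses, and Btg2 (also called Tis21) marks the progenitors that divide to make neurons.

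The promoters of 4 of the genes are shown because these genes span the range of levels and of differences between the groups described here, from Fosb, the lowest, to Btg2, next to the highest. RefSeq promoters (GRCm38.p6, 250 bases before to 50 after the start) were found for 7 of the 10 genes, and Egr1, Ier2 and Arc are named only. Capitals mark TGACG on either strand, the core of the cAMP response element that CREB binds (CGTCA when read from the other strand), the full palindrome TGACGTCA, and the TATA box TATAAA. The windows are chr12:85473640-85473939 on the plus strand for Fos, chr7:19309996-19310295 on the minus strand for Fosb, chr15:101266596-101266895 on the plus strand for Nr4a1 (a start site within the gene as annotated by GENCODE) and chr1:134079106-134079405 on the minus strand for Btg2.
Fos: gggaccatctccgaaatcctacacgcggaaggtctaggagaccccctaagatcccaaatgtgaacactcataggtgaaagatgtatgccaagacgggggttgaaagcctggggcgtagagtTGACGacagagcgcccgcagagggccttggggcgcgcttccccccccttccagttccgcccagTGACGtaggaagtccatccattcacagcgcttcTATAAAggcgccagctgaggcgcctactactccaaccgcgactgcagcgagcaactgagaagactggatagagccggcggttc
Fosb: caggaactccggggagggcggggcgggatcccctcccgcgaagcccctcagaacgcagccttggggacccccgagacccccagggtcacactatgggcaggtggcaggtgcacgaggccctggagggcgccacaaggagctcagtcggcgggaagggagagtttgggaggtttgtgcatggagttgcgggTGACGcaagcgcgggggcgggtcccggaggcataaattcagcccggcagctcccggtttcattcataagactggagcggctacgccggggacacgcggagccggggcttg
Nr4a1: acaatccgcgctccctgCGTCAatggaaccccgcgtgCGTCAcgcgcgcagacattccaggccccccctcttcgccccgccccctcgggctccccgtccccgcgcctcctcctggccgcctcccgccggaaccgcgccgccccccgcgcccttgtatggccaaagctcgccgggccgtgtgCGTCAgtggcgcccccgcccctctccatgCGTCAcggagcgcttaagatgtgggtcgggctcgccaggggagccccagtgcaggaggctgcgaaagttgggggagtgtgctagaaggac
Btg2: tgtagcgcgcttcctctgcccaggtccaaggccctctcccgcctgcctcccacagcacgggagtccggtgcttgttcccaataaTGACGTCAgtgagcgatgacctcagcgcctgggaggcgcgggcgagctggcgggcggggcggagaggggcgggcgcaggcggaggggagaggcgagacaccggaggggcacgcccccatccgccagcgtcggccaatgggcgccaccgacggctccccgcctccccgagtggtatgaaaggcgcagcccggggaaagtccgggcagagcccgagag

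TGACG stood in 6 of the 7 promoters, against 20.8% of the 32851 promoters searched. Nr4a1 held 4 copies, and Jun, whose promoter is not shown, held none. The full TGACGTCA stood in 1, that of Btg2, against 1.79% of all promoters, and TATAAA in 2, those of Fos and Junb, against 13.6%. The TATAAA of Fos began at position -33 from the start site, while that of Junb began at position 1, the RefSeq start site. The start of Junb as annotated by GENCODE, 84978718 on chromosome 8, lies downstream of that site. By that annotation the TATAAA of Junb stands before the start. TGANTCA, the AP-1 site, had no match in the 7 windows (7.81% of all promoters), and neither did the CArG box of the serum response element (1.63%). Each motif was searched on both strands, and a TGACGTCA also counts as a TGACG. A match is a run of letters and not a measured binding site, and sites outside these windows were not searched.

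The levels of the immediate early genes in the fetal cortex ran in the Ctr group from 0.08 TPM for Fosb to 59.8 TPM for Jun, and none of the 7 that could be tested passed the test between the Sevo and Ctr groups (limma, adjusted p from 0.423 to 0.934). Over all tested genes 0.00689% passed. Without Ctr replicate 2, the library with the most choroid plexus RNA, none of the 7 passed either. In the Ctr group, Jun (59.8 ± 2.2 TPM, SD, n = 3), Btg2 (52.0 ± 0.88 TPM) and Ier2 (27.4 ± 0.76 TPM) led. Nr4a1, Junb and Arc followed between 3.59 and 4.16 TPM, and Fos, Egr1, Npas4 and Fosb were at 0.86 TPM or below. Over the 6 samples, the mean of Jun was above that of 90.9% of the named genes that were above 0 in any sample, that of Btg2 above 88.7%, that of Ier2 above 81.3% and that of Fosb above 29.7%. The order of the means was the same in both groups. In each group the values of Nr4a1 overlapped those of Junb, and those of Junb overlapped those of Arc, so these neighbours do not differ beyond their spread. Egr1 overlapped both Fos and Npas4, while every value of Fos was above every value of Npas4. Jun and Btg2 were separate in the Ctr group and overlapped in the Sevo group. In whole tissue, a lower number of cells of a type and less RNA per cell cannot be told apart.

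**Figure D1:**
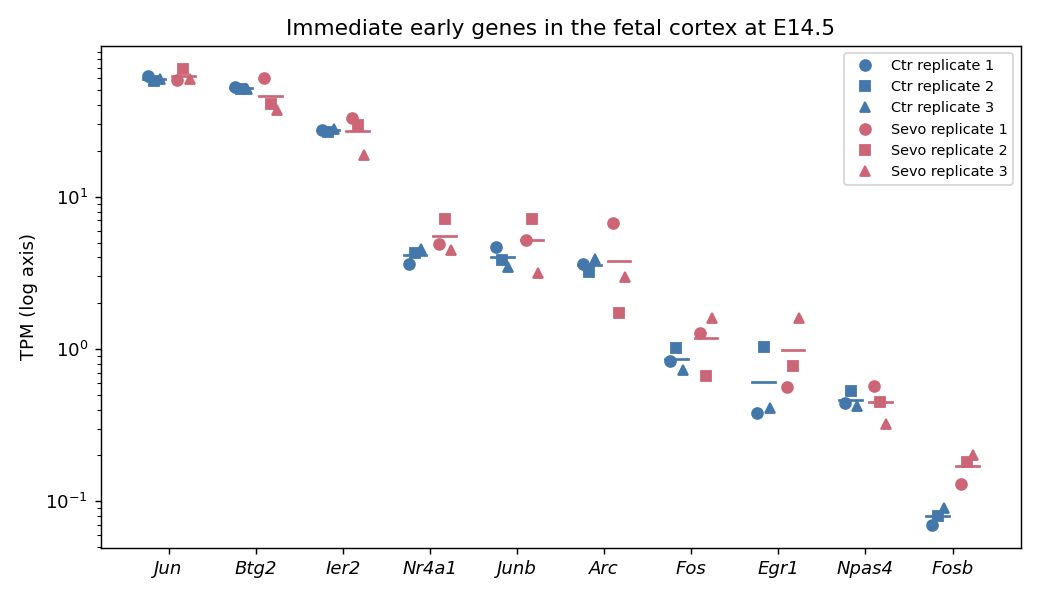
TPM of the 10 immediate early genes on a log axis, ordered by their mean over all samples. Points are single samples (blue, Ctr; red, Sevo; circle, square and triangle for replicates 1, 2 and 3) and bars are group means. Jun, Btg2 and Ier2 lie above 18 TPM in every sample, and Fosb, the lowest, is the one gene whose groups do not overlap.

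The libraries carried cortex RNA. Summed radial glial markers, mostly Fabp7 and Vim, were between 2550 and 2726 TPM in the Ctr group. In the Sevo group they were between 2051 and 2321 TPM, without overlap. Summed neuron markers were between 3061 and 3626 TPM, and 1 Ctr library stood apart in neighbouring tissue. In Ctr replicate 2 the 6 markers of choroid plexus, which secretes cerebrospinal fluid, summed to 779 TPM, of which Ttr made 734, against 2.10 to 26.5 TPM elsewhere. The 9 meningeal markers summed to 195 TPM there against 16.7 to 50.9 TPM, and the 10 endothelial markers to 168 TPM against 84.2 to 100.04 TPM. No marker of these 3 lists was at 0 in all samples. Pericyte markers summed to 20.5 to 33.6 TPM, microglia markers to 37.3 to 51.7 TPM and blood markers to 2199 to 4231 TPM over the 6 samples. The read depth is unknown, since TPM keep no depth, and a value such as 0.07 TPM carries a counting error that cannot be given.

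Fos and Fosb, which form AP-1 only together with a Jun protein, were near the floor of the measurement. Fos (ENSMUSG00000021250, chromosome 12, 85473890 to 85477273, GRCm38) had 0.84, 1.01 and 0.73 TPM in Ctr replicates 1 to 3 and 1.28, 0.67 and 1.60 TPM in Sevo replicates 1 to 3. The Sevo values surround those of the Ctr group, with the lowest of all 6 in Sevo replicate 2. The log2 fold change of log2(TPM + 1) was 0.21 (standard error 0.25, 95% interval -0.36 to 0.78, adjusted p = 0.679, limma). It was 0.39 without Sevo replicate 2, 0.07 without Sevo replicate 3 and 0.38 with a pseudocount of 0.01. The mean of Fos was below 1 TPM in the Ctr group, so it reached the limit for the test only through the Sevo samples. Fosb (ENSMUSG00000003545, chromosome 7, 19302696 to 19310051) had 0.07, 0.08 and 0.09 TPM in Ctr samples against 0.13, 0.18 and 0.20 TPM in Sevo samples. Every Sevo sample was above every Ctr sample, and the mean was 2.13 times as high (0.17 ± 0.036 against 0.08 ± 0.01 TPM, SD, n = 3), at a level listed to 2 decimals. It was the single gene of the 10 with groups that did not overlap. Among the 18623 named genes above 0 in all samples, every Sevo value was higher in 9.4% and lower in 14.8%. The two-sided exact permutation p was 0.1, the smallest that 3 samples against 3 can give, and in the other 9 genes it lay between 0.2 and 1. When all genes above 0 were fitted, the difference of Fosb was 0.12 on the log2(TPM + 1) scale. Its unadjusted p was 0.0425 and its adjusted p 0.394 (limma). In that fit 3535 of 28952 genes had an unadjusted p under 0.05.

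Jun and Junb, the partners in AP-1, were more abundant, and their groups overlapped. Jun (ENSMUSG00000052684, chromosome 4, 95049034 to 95052222), a gene without introns, had 62.1, 57.7 and 59.5 TPM in Ctr samples against 58.7, 69.5 and 59.8 TPM in Sevo samples. Sevo replicate 2 stood above the rest, and the other 5 samples lay within 57.7 and 62.1 TPM. The log2 fold change was 0.06 (95% interval -0.16 to 0.29, adjusted p = 0.759, limma), the narrowest interval of the 7 genes, and it was -0.01 without Sevo replicate 2. Junb (ENSMUSG00000052837, chromosome 8, 84974484 to 84978718), which can oppose Jun in cell growth, had 4.70, 3.86 and 3.48 TPM and 5.22, 7.14 and 3.15 TPM. Its highest and its lowest value were both Sevo samples. Its log2 fold change was 0.25 (95% interval -0.35 to 0.85, adjusted p = 0.634, limma), 0.03 without Sevo replicate 2 and 0.51 (unadjusted p = 0.0427, adjusted p = 0.244) without Sevo replicate 3. Exons of Jun overlap those of Junos over 232 bases on the opposite strand, and exons of Junb overlap those of Prdx2 over 173 bases. The strandedness of the counting was not stated, so reads from these stretches cannot be assigned to either gene.

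Of the other AP-1 genes, which are not among the 10, Jund was the most abundant of the family. It had 125, 140 and 144 TPM in Ctr samples against 186, 299 and 254 TPM in Sevo samples. The groups did not overlap, and the log2 fold change was 0.82 (standard error 0.16), short of the threshold over all genes (adjusted p = 0.0916, limma). Jund is made steadily in most cells and is the least inducible of the Jun genes. Fosl1 was listed at 0 TPM in 1 sample of each group and did not exceed 1.02 TPM.

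Egr1, Nr4a1 and Npas4 encode transcription factors of other families. Egr1 (ENSMUSG00000038418, chromosome 18, 34859823 to 34864984), a zinc finger protein, had 0.38, 1.03 and 0.41 TPM in Ctr samples against 0.56, 0.77 and 1.61 TPM in Sevo samples. The high Ctr value came from replicate 2, the library with choroid plexus, meningeal and endothelial RNA, whose part in it was not tested. The difference was 0.29 on the log2(TPM + 1) scale (95% interval -0.32 to 0.90, adjusted p = 0.681, limma fit of all genes above 0), 0.47 without that library and 0.07 without Sevo replicate 3. Of its relatives, Egr2 and Egr4 did not exceed 0.12 TPM in any sample, and Egr3 had 0.23, 0.24 and 0.42 TPM in Ctr samples against 0.09, 0.42 and 1.05 TPM in Sevo samples. Sevo replicate 3 was the highest of the 6 samples for Egr1 and for Egr3.

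Nr4a1 (ENSMUSG00000023034, chromosome 15, 101254269 to 101274795), an orphan nuclear receptor, had the largest difference of the 7 tested genes on the log2(TPM + 1) scale, while the ratio of the means was 1.32 for Nr4a1 and 1.38 for Fos. It had 3.64, 4.29 and 4.55 TPM in Ctr samples against 4.88, 7.15 and 4.49 TPM in Sevo samples. A single pair overlapped, with Sevo replicate 3 just under Ctr replicate 3. The means were 4.16 ± 0.47 and 5.51 ± 1.4 TPM (SD, n = 3). The log2 fold change was 0.32 (standard error 0.20, 95% interval -0.14 to 0.78, adjusted p = 0.423, limma). Without Sevo replicate 2 it was 0.14. Npas4 (ENSMUSG00000045903, chromosome 19, 4984355 to 4990316), a factor that neurons induce on calcium entry, had 0.44, 0.53 and 0.42 TPM and 0.57, 0.45 and 0.32 TPM. The groups overlapped throughout, with a difference of -0.02 on the log2(TPM + 1) scale (95% interval -0.26 to 0.22, adjusted p = 0.951, limma fit of all genes above 0).

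Arc, Ier2 and Btg2 were tightly grouped in the Ctr cortex and wide apart in the Sevo cortex. Arc (ENSMUSG00000022602, chromosome 15, 74669083 to 74672570), which controls receptor removal at synapses, had 3.61, 3.23 and 3.92 TPM in Ctr samples against 6.69, 1.72 and 2.96 TPM in Sevo samples. The highest Sevo value was 3.89 times the lowest, against 1.21 times in the Ctr group, and the Ctr values lay between those of the Sevo samples. The log2 fold change was -0.07 (95% interval -0.89 to 0.75, adjusted p = 0.934, limma), the widest interval of the 7 genes. It was -0.48 without Sevo replicate 1 and 0.27 without Sevo replicate 2. Ier2 (ENSMUSG00000053560, chromosome 8, 84661331 to 84662852), a nuclear protein from a gene without introns, had 27.7, 26.5 and 27.9 TPM and 33.0, 29.8 and 18.8 TPM. Sevo replicates 1 and 2 were above the Ctr group and Sevo replicate 3 was below it. The log2 fold change was -0.05 (95% interval -0.50 to 0.41, adjusted p = 0.922, limma), and it turned to 0.19 without Sevo replicate 3 and to 0.05 after median centring.

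Btg2 (ENSMUSG00000020423, chromosome 1, 134075170 to 134079120) had 52.97, 51.5 and 51.4 TPM in Ctr samples against 60.2, 40.5 and 37.4 TPM in Sevo samples. Sevo replicate 1 lay above the Ctr group, and Sevo replicates 2 and 3 lay below it. The log2 fold change was -0.20 (standard error 0.17, 95% interval -0.60 to 0.19, adjusted p = 0.554, limma). Without Sevo replicate 1 it was -0.41, with an unadjusted p of 0.00401 and an adjusted p of 0.117 (limma). It was -0.13 without Sevo replicate 2 and -0.07 without Sevo replicate 3. Of 13 genes of neurogenic progenitors, all tested, 3 had an unadjusted p under 0.05, all with lower values in the Sevo group, beside 19.4% of all tested genes in either direction, and none passed over all genes. The median of the 13 was -0.36, with 10 negative differences and 3 positive ones (Dll3 0.23, Insm1 0.11 and Hes6 0.04). Negative differences were found in 8553 of all 14518 tested genes. The summed radial glial markers, mostly Fabp7 and Vim, were also lower, at 2668, 2726 and 2550 TPM in Ctr samples against 2230, 2321 and 2051 TPM in Sevo samples. Of the 9 markers, 7 had negative and 2 positive differences (Sox2 0.28 and Slc1a3 0.06), and only Fabp7 had groups that did not overlap. The part of these markers in the values of Btg2 was not tested. Eomes, the gene of Tbr2, had 170, 168 and 176 TPM in Ctr samples against 153, 133 and 112 TPM in Sevo samples. Neurog2, which drives neurogenesis, had 240, 229 and 242 TPM and 254, 212 and 106 TPM. Like Btg2, Neurog2 was highest in Sevo replicate 1 and lowest in Sevo replicate 3. Btg2 is also a target of p53. Of 12 tested p53 targets, 8 had positive and 4 negative differences. In 1 every Sevo sample lay above every Ctr sample and in 4 below, beside 1369 and 2572 of all 14518 tested genes. An unadjusted p under 0.05 (limma) was found for 1 in each direction. Eda2r, among the positive ones, had a Ctr mean of 0.88 TPM and was tested only because of its Sevo values. Bbc3, a promoter of apoptosis, was at 0.74 (adjusted p = 0.144, limma) and Trp53inp1 at -0.53 (adjusted p = 0.152).

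**Figure D2:**
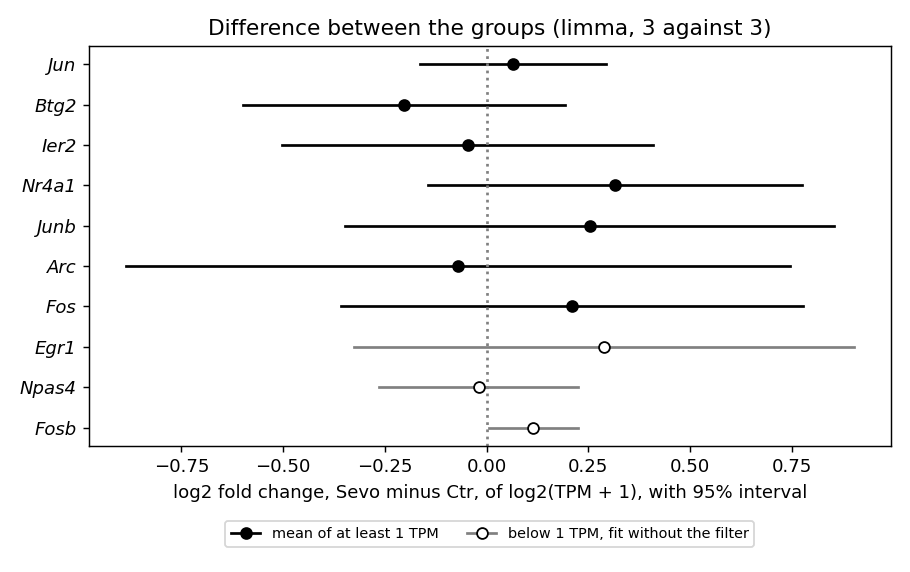
Difference between the groups, Sevo minus Ctr, on the log2(TPM + 1) scale for each gene, with the 95% interval from limma. Filled points are the 7 genes that averaged 1 TPM or more, whose intervals all include 0, and open points are the 3 lower genes from a fit of all genes above 0, where the interval of Fosb runs from 0.01 to 0.22.

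Over all 14518 tested genes, 1 passed an adjusted p of 0.05 (0.00689%) and 2812 had an unadjusted p under 0.05 (19.4%, limma), 953 of them higher and 1859 lower in the Sevo group. After median centring, 1689 were higher and 892 lower. Of the 7 tested immediate early genes, none reached either. Their log2 fold changes had a median of 0.06, 4 positive and 3 negative, beside a median of -0.06 over all tested genes. Fos, among the positive ones, was tested only because of its Sevo values, a direction that the filter favours. With every sample set to a common median, the medians became 0.16 and 0.04. Every Sevo sample then lay above every Ctr sample for 3 of the 10 genes, Jun, Nr4a1 and Fosb. In that scaling 18.5% of the genes above 0 in all samples were separated upwards and 7.85% downwards.

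The values of the Sevo samples lay farther apart than those of the Ctr samples. The standard deviation of log2(TPM + 1) was larger in the Sevo group than in the Ctr group for all 10, and the highest of the 6 samples was a Sevo sample for all 10. Over the 18623 genes above 0 in all samples, the standard deviation was larger in the Sevo group for 70.9%, and the highest sample was a Sevo sample for 54.1%. For 6 of the 10 (Btg2, Ier2, Junb, Arc, Fos and Npas4) the whole Ctr range lay inside the Sevo range, against 25.1% of these genes. This pattern was noticed after the values were seen and is given as a description. The coefficient of variation in the Sevo group was 68.3% for Arc, 38.6% for Junb, 26.9% for Btg2 and 27.5% for Ier2, against 9.64%, 15.6%, 1.70% and 2.77% in the Ctr group. For Egr1 it was 56.7% in the Sevo and 60.5% in the Ctr group.

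**Figure D3:**
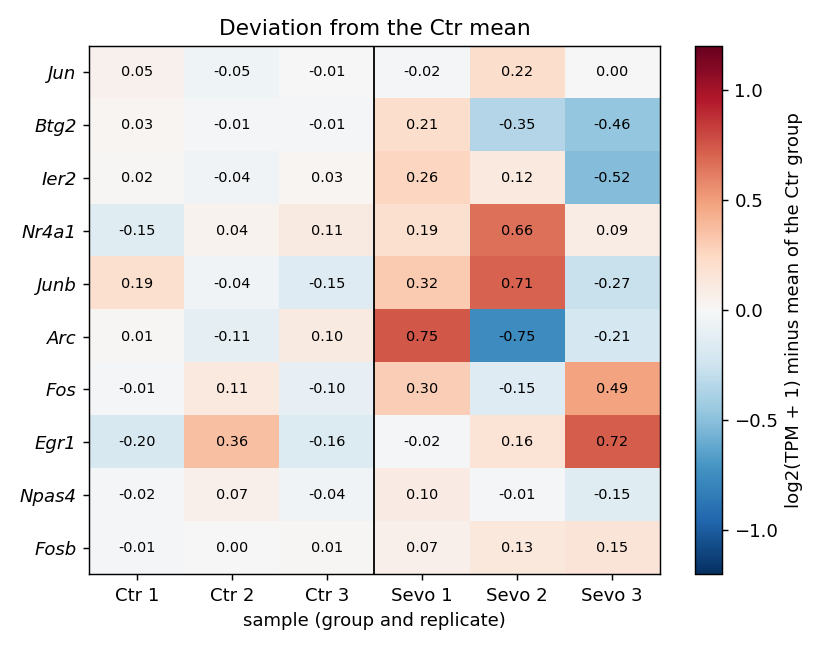
Each cell gives log2(TPM + 1) of a sample minus the mean of the Ctr group for that gene (red, above; blue, below), with the genes ordered as in the plot of levels. Arc runs from 0.75 in Sevo replicate 1 to -0.75 in Sevo replicate 2, and Btg2 from 0.21 in Sevo replicate 1 to -0.46 in Sevo replicate 3, while in the Ctr samples Arc stays between -0.11 and 0.10 and Btg2 between -0.01 and 0.03.

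The genes did not peak in the same Sevo sample. Sevo replicate 1 was highest for Btg2, Ier2, Arc and Npas4, Sevo replicate 2 for Jun, Junb and Nr4a1, and Sevo replicate 3 for Fos, Fosb and Egr1. Sevo replicate 3 was lowest for 4 of the genes (Btg2, Ier2, Junb and Npas4) and Sevo replicate 2 for Arc and Fos. The summed TPM of the 10 genes, most of it Jun, Btg2 and Ier2, was 156, 150 and 152 in the Ctr group and 171, 158 and 130 in the Sevo group. Other genes also set the Sevo libraries apart from each other. The chaperone Hspa5 had 69.3 TPM in Sevo replicate 2 and 206 and 238 TPM in the other two, beside 191 to 204 TPM in the Ctr group, and Hspa8 had 788 TPM there against 1649 to 2130 TPM in the other 5 samples. The part of such differences between libraries in the values of the immediate early genes was not tested.

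Among 10949 genes that averaged 5 TPM or more, the 8 whose log2(TPM + 1) over the 6 samples was most like the mean standardized profile of the 7 tested genes had Pearson correlations from 0.949 to 0.992, as a description. They were Hs3st1, Rab36, Dusp10, Mycn, Zkscan5, Xab2, Zfp367 and Gosr1. Dusp10, a phosphatase of the stress-activated kinases p38 and JNK, had 6.63, 6.66 and 5.92 TPM in Ctr samples against 9.19, 7.68 and 4.72 TPM in Sevo samples. That profile is not shared by all 7. The correlation of a gene with the mean of the other 6, over the 6 samples, ran from -0.49 for Fos to 0.72 for Ier2.

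Other rapidly induced genes, a list of 44 of which 36 were tested, had differences in both directions. None passed an adjusted p of 0.05, 3 had an unadjusted p under 0.05 with higher values in the Sevo group and 3 with lower values, and the median log2 fold change was 0.06. The higher ones were Jund, Csrnp1 and Ier5, of which Jund is on the list although it is the least inducible of the Jun genes. Csrnp1, a nuclear protein, had 1.93, 1.87 and 2.83 TPM in Ctr samples against 6.00, 7.47 and 3.06 TPM in Sevo samples, a log2 fold change of 0.97 (adjusted p = 0.152, limma). Ier5 had 95.3, 94.2 and 92.7 TPM and 130, 121 and 106 TPM, a log2 fold change of 0.33 (adjusted p = 0.145). The lower ones were Gadd45g, Ccn1 and Mcl1. Gadd45g, which also marks newly committed neuronal precursors, had 139, 146 and 146 TPM and 133, 72.5 and 66.8 TPM (log2 fold change -0.72, adjusted p = 0.170). Ccn1, a secreted matrix protein, had a log2 fold change of -0.56 (adjusted p = 0.149), and Mcl1, an inhibitor of apoptosis, had 70.1, 67.7 and 69.9 TPM and 54.2, 43.0 and 57.7 TPM (log2 fold change -0.43, adjusted p = 0.141). In all 6 of these genes every Sevo sample lay on one side of every Ctr sample, which a low p favours. Of the 36 tested, 4 lay wholly above and 4 wholly below, beside 1369 and 2572 of all 14518 tested genes. Atf3, a stress-induced partner of Jun that was below the limit of 1 TPM, had 0.63, 0.87 and 0.68 TPM and 0.42, 0.04 and 0.40 TPM. It was named after its values were seen.

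Delayed genes, which neurons transcribe hours after activity and which code for secreted factors and modulators of synapses, were mostly of low level, where the filter favours a gene that is high in either group. Of 16 listed, 9 were tested, and of these Vgf, Inhba and Gpr3 had Ctr means below 1 TPM and reached the limit only through their Sevo values. The 9 differences were positive, with a median log2 fold change of 0.40, a direction that the filter favours in those 3. None passed over all genes. An unadjusted p under 0.05 (limma) was found in 3 of the 9, beside 19.4% of all tested genes in either direction. Of these 3, Vgf and Inhba were among those let in through their Sevo values. Penk, the precursor of enkephalins, had 1.15, 2.09 and 1.98 TPM in Ctr samples against 2.85, 3.26 and 3.52 TPM in Sevo samples (log2 fold change 0.63, adjusted p = 0.179, limma). Inhba, a subunit of activin, had 0.79, 0.57 and 0.84 TPM and 1.21, 1.77 and 1.78 TPM (0.57, adjusted p = 0.212). Vgf, a secreted neuropeptide precursor, had 0.51, 0.81 and 1.10 TPM and 0.96, 3.19 and 3.47 TPM, with overlap (0.89, adjusted p = 0.218). Nrn1, the most abundant of the list, had 79.9, 77.4 and 78.6 TPM and 77.8, 103 and 70.2 TPM (0.07). Of the 7 members below 1 TPM, Bdnf had 0.16, 0.24 and 0.38 TPM and 0.48, 0.15 and 0.44 TPM, and Crh had 0.71, 0.46 and 0.80 TPM and 0.31, 0 and 0.18 TPM.

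**Figure D4:**
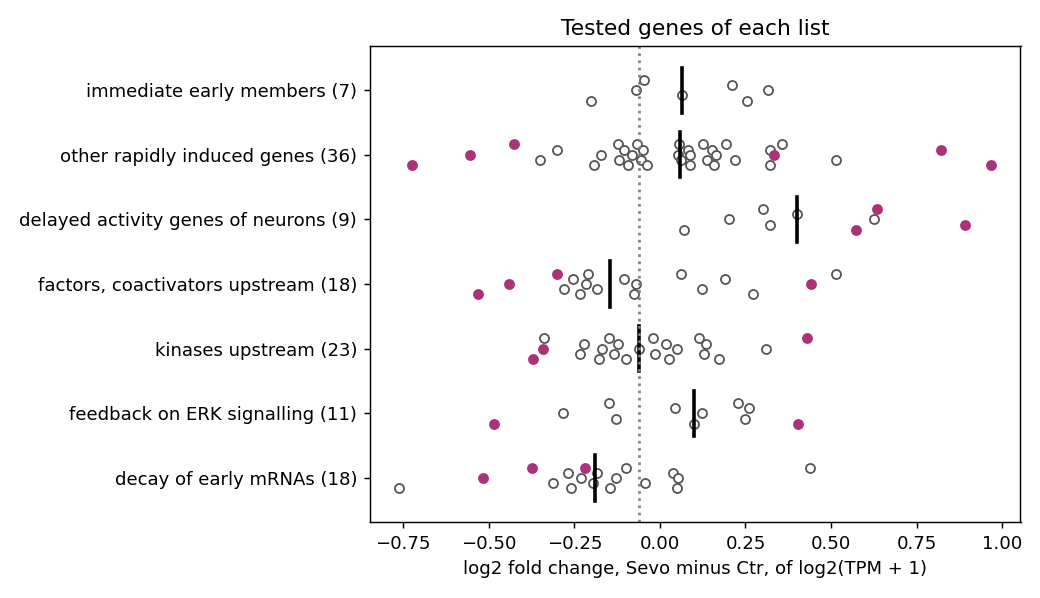
Log2 fold change of each tested gene of 7 lists, with the number tested in brackets. Filled points have an unadjusted p under 0.05 from limma, black bars are medians, the dotted line is the median of all tested genes (-0.06), and no gene shown passed an adjusted p of 0.05. The 9 delayed genes lie to the right of 0, 3 of them tested only because of their Sevo values, while the 18 genes of mRNA decay have a median of -0.19.

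Upstream of the immediate early genes, the transcription factors and coactivators had 6 positive and 12 negative differences among 18 tested, with a median of -0.14. Of all 14518 tested genes, 8553 had negative differences. Ep300, a histone acetylase recruited by CREB, had 25.2, 24.1 and 32.8 TPM in Ctr samples against 16.7, 22.1 and 16.9 TPM in Sevo samples (log2 fold change -0.53, adjusted p = 0.158, limma). Atf1, a relative of CREB, and Atf2, a partner of Jun, had log2 fold changes of -0.44 and -0.30 (adjusted p = 0.209 and 0.250), and Stat3, which acts on Fos and Junb after cytokines, had 0.44 (adjusted p = 0.175). Among 23 kinases the median was -0.06, with Mapk14, the gene of p38 alpha, at -0.37 (adjusted p = 0.125), Rps6ka3, the gene of RSK2, at -0.34 (adjusted p = 0.172) and Camk2b at 0.43 (adjusted p = 0.247). Feedback genes, whose transcription follows ERK signalling, gave no common direction. Dusp6, a phosphatase of ERK, had 13.6, 16.1 and 12.9 TPM and 19.8, 18.1 and 19.1 TPM, without overlap (0.40, adjusted p = 0.161), and Etv5, an ETS factor, had 23.8, 18.3 and 23.1 TPM and 13.4, 14.3 and 18.0 TPM, also without overlap (-0.49, adjusted p = 0.171). The median of the 11 tested was 0.10.

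Genes that control the decay of early mRNAs had 14 negative and 4 positive differences among 18 tested, beside 8553 negative ones among all 14518 tested genes. Their median was -0.19, beside -0.06 over all genes. Elavl1, the gene of HuR, which binds AU-rich elements such as that of Fos mRNA and stabilizes them, had 60.7, 58.0 and 57.1 TPM in Ctr samples against 43.5, 39.6 and 39.1 TPM in Sevo samples. Every Sevo sample was lower, and the log2 fold change was -0.52 (standard error 0.09), short of the threshold (adjusted p = 0.0746, limma). Cnot1, the scaffold of the deadenylase to which Btg2 protein binds, had 98.6, 104 and 102 TPM and 79.2, 90.9 and 92.0 TPM (-0.22, adjusted p = 0.242). None of the 18 passed over all genes. Of the heat shock and stress genes, Dnajb1, a partner of Hsp70, had 26.3, 27.1 and 27.9 TPM and 18.4, 18.9 and 18.9 TPM (-0.51, adjusted p = 0.0861), and 7 of the 9 tested had negative differences, with a median of -0.26. Hspb1, a small heat shock protein, had the largest difference of the list, in the other direction, with 0.23, 2.38 and 0.27 TPM and 3.07, 2.73 and 2.58 TPM (1.12, adjusted p = 0.187). Its high Ctr value was that of replicate 2, and its Ctr mean was below the limit of 1 TPM.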

How the data were processed

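Total RNA of the fetal cortex was sequenced in 3 Ctr and 3 Sevo samples, assigned by their labels. The authors deposited TPM per gene and sample, listed to 2 decimals. The submitters' processing notes name Bowtie 0.12.2, edgeR, mm8 and mm10, with no role for any of them. Read depth is unknown. Date-like gene names (27) were restored by Ensembl identifier.

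Genes with a name and an average of 1 TPM or more were compared as log2(TPM + 1) with limma 3.58.1 (R 4.3.3, eBayes with trend, two-sided, Benjamini-Hochberg adjustment over 14518 genes), which stood in for the count model of the study's methods, since TPM are not counts. Exact permutation tests, promoter searches and plots used Python 3.11.15, SciPy 1.17.1 and matplotlib 3.10.9. The fit was tested on simulated data. Positions are from GENCODE M21 (GRCm38), which need not be the annotation behind the TPM. The genes and lists were chosen with earlier results of these data known. Of each list, the rule named the 3 genes of highest mean TPM and the 3 of lowest unadjusted p where it was under 0.05, besides any past an adjusted p of 0.05, and a part of these is printed. Csrnp1, Ccn1, Fosl1, the other Egr genes, Atf3, Bdnf, Gpr3, Crh, Dll3, Insm1, Hes6, Eda2r, Sox2 and Slc1a3 fall outside it and were chosen after their values were seen. Alternatives were other pseudocounts, filters, scalings and variance models, the replicate block and each sample left out.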

Additional observations from a re-analysis of the deposited data

How the results depend on the processing

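No immediate early gene passed an adjusted p of 0.05 (limma) under any of the alternatives run. At an unadjusted p under 0.05 there was 1 with no filter on low values (Fosb), beside 3535 of all 28952 genes fitted. With single samples left out there were 0 to 1. These were Btg2 without Sevo replicate 1, beside 2959 of 14518 genes, and Junb without Sevo replicate 3, beside 2789. The median log2 fold change of the tested immediate early genes was -0.0467 over the 3 that reached a mean of 5 TPM. After median centring, 3 genes had groups that did not overlap. Directions turned for 4 genes of small difference. Ier2 was 0.0509 after median centring and 0.0446 after quantile normalization, and Arc was 0.0269 after median centring and 0.133 with sample weights. Npas4 was 0.0782 after median centring. The centring moved log2(TPM + 1) of every gene in a sample by the same amount. For genes near 0 TPM that is more than a rescaling of the TPM would give. With single samples left out, the ranges were -0.0108 to 0.109 for Jun, -0.201 to 0.191 for Ier2, -0.480 to 0.270 for Arc and -0.0802 to 0.0449 for Npas4. The other 6 kept their direction. Over all genes, 2 passed with sample weights and 1 to 7 with single samples left out, and 1719 to 3367 had an unadjusted p under 0.05. Same-numbered Ctr and Sevo samples did not deviate together (correlations from -0.0162 to 0.0207), and a replicate block left 2743 genes at an unadjusted p under 0.05, against 2812, and no immediate early gene. Fosb, Egr1 and Npas4 had no value after quantile normalization. The causes were not tested. The unknown depth limits Fos, Egr1, Npas4 and Fosb most.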
